A study of Mus musculus with 6 samples.

Results

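Calcium release and sarcoplasmic reticulum genes were followed in C2C12 cells, a mouse myoblast line that fuses into multinucleated myotubes when serum is lowered. The set was given as 10 gene symbols: Atp2a1, Atp2a2, Casq1, Casq2, Srl, Ryr1, Ryr3, Cacna1s, Cacng1 and Asph. Every probe set that the array's annotation pairs with exactly 1 of them was read, which gave 23 probe sets out of 34958 with a single gene, and 10 genes out of 18194. Each probe set is a group of short probes that reads 1 stretch of a transcript. Of these genes, 6 were read by 1 probe set and 4 by several: Atp2a2 and Asph by 6 each, Ryr3 by 3 and Ryr1 by 2.

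The 6 arrays each hold 1 culture. Parental C2C12 cells were taken in growth medium (DMEM with 10% fetal bovine serum), then after confluence on day 0, just after the switch to differentiation medium (DMEM with 2% horse serum), and on days 2 and 4 in that medium. Day 0 cells also came from 2 stable lines, made by lipid transfection and kept under 500 µg/ml of G418. The shRp58 line expressed a hairpin RNA directed at Rp58. The control-vector line is called LacZ in one label field and a control hairpin in another. Both lines had thus passed through selection, and the labels do not say whether they were pools or single clones. Rp58, now named Zbtb18, is a zinc finger repressor of transcription. With 1 array per group there was no replicate error, so every difference below is between 2 arrays, carries no p-value, and its precision is limited by the number of arrays.

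Values are RMA intensities on the log2 scale, so a difference of 1 is 2-fold. The array medians were 8.26 to 8.27 in the time course and 7.15 in both stable lines, and differences were taken only within each of these sets. For a gene read by several probe sets, counts over genes use its brightest one (by mean over the arrays), with the others given beside it. A gene or probe set was kept when its highest value reached 7.95, the median of all values. Taken over both sets, this level lay below the array medians of the time course and above those of the stable lines. The filter kept all 10 genes and 21 of the 23 probe sets, next to 13242 genes in all, and values below that level are dim and inexact in size. Muscle identity was checked on 10 markers, whose mean was 10.58 in growth medium, 12.49 on day 0, 13.39 on day 2 and 13.60 on day 4. The markers did not all go the way of their mean. On day 4 against day 0, 8 were higher and 2 lower, Myf5 (-1.29) and Cdh15 (-0.69). Of 21 measured markers of heart, fat, blood, vessel and nerve cells, 12 stayed below the filter and 0 of the other 9 were 2-fold apart in the comparisons given here. The 6 heart markers averaged between 8.16 and 8.58 over the time course, with the highest mean in growth medium. Zbtb18 itself was 11.16 in shRp58 cells and 11.69 in control-vector cells, a difference of -0.53, which is short of 2-fold.

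In skeletal muscle, an action potential travels down the T-tubule and moves the voltage sensor of the L-type calcium channel, whose pore subunit is encoded by Cacna1s. That movement opens the ryanodine receptor Ryr1 in the facing sarcoplasmic reticulum, and calcium released there starts contraction. Calsequestrin (Casq1 and Casq2) and sarcalumenin (Srl) bind calcium inside the store, and SERCA pumps (Atp2a1 and Atp2a2) return it. In adult muscle Atp2a1 is the fast-fibre SERCA and Casq1 is the skeletal calsequestrin, while Casq2 and Atp2a2 are known from heart and slow fibres.

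The windows upstream of 5 of the 10 genes were matched in RefSeq (GRCm38.p6), and 4 of them are printed: those of Atp2a1, with the largest difference over the whole time course, of Cacna1s and Casq1, which lead single steps of it, and that of Casq2, whose timing contrasts with Casq1. Each is the 250 bases before the start, written 5′ to 3′ on the gene's strand, and capitals mark E-boxes (CANNTG, the core bound by myogenic helix-loop-helix factors) and the MEF2 box.
Atp2a1 (chr7:126463074-126463323, minus strand): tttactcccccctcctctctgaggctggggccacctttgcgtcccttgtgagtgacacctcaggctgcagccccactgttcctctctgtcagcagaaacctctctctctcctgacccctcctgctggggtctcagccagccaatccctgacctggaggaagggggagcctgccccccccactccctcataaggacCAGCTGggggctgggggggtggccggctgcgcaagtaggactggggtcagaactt
Casq1 (chr1:172219896-172220145, minus strand): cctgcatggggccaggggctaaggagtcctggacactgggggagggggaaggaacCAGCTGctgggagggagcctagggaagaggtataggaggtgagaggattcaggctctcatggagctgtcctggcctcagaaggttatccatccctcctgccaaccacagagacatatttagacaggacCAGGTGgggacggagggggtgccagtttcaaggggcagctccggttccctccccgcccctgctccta
Casq2 (chr3:102086165-102086414, plus strand): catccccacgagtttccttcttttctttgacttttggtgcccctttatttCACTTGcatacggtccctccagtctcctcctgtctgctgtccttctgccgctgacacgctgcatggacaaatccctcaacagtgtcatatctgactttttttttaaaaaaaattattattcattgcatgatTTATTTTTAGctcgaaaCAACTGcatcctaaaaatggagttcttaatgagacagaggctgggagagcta
Cacna1s (chr1:136052561-136052810, plus strand): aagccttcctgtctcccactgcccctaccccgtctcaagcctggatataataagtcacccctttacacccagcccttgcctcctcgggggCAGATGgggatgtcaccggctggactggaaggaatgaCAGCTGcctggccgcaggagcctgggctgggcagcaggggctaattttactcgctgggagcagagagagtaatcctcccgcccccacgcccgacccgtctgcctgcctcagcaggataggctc
Both strands were searched over 300 bases, from 250 before to 50 after the start. E-boxes were in 4 of the 5 windows (Ryr1 had none) and in 72.3% of all 32851 windows. The E-box CAGCTG was in 3 of the 5, those of Atp2a1, Casq1 and Cacna1s, and in 16.3% of all windows. Its first base lay 55 bases before the start in Atp2a1, 195 in Casq1 and 123 in Cacna1s. CACCTG was read in Casq1 alone of the 5 (20.2% of all windows), and CATCTG in Cacna1s alone (17.2%). A MEF2 box was present in Casq2 alone of the 5 (3.19%), 69 bases before the start, with an E-box of the form CAACTG at 52 bases. The longer form ACATCTG, the core of the described Rp58 site, overlaps an E-box and was in 0 of the 5 and in 4.43% of all windows. The MEF3 box TCAGGTT (4.07%) and the CArG box (1.63%) were in 0 of the 5. Matches to the hexamers are counted among the E-boxes too, and a match is a description of letters only.

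The uptake pump Atp2a1, the fast-muscle SERCA, stood at 8.74 in growth medium, 11.34 on day 0, 12.58 on day 2 and 13.84 on day 4. It was higher at each later array, by 2.60, 1.24 and 1.26 over the 3 steps, and by 5.10 in all (34.3-fold). Among the 10 genes this was the largest difference between day 4 and growth medium, ahead of Casq2 (5.03), Srl (4.90) and Cacna1s (4.90). These values are close and rest on single arrays. The growth-medium value of Cacna1s (7.35) was below the filter, so its difference is inexact and the order is not firm.

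Atp2a2, the SERCA gene of heart, slow muscle and, through another splice form, most other cells, gave 2 kinds of course. Its brightest probe set (1427250_at) was 13.21 in growth medium, 13.29 on day 0, 13.24 on day 2 and 12.69 on day 4. That course was flat until day 2 and 0.55 lower on day 4 than on day 2. Probe set 1416551_at read 10.99, 11.87, 13.61 and 13.83 on the same arrays, and 1452363_a_at read 11.36, 11.78, 13.62 and 13.92. These 2 probe sets were thus 1.96 and 2.14 higher on day 4 than on day 0, whereas the brightest differed by -0.60. The other 2 kept probe sets differed by 0.05 (1427251_at) and 0.29 (1437797_at), and 1443551_at never passed 6.29. The gene is known to make transcripts with different 3′ ends for its muscle and general forms, but the positions of the probe sets on those transcripts were not analysed here. Whether Atp2a1 differed more than Atp2a2 between day 0 and day 2 depended on the probe set: the difference of their differences ran from -0.59 to 1.29 over 5 pairings. Between day 2 and day 4 it was positive in all 5 pairings, from 0.95 to 1.80.

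**Figure D1:**
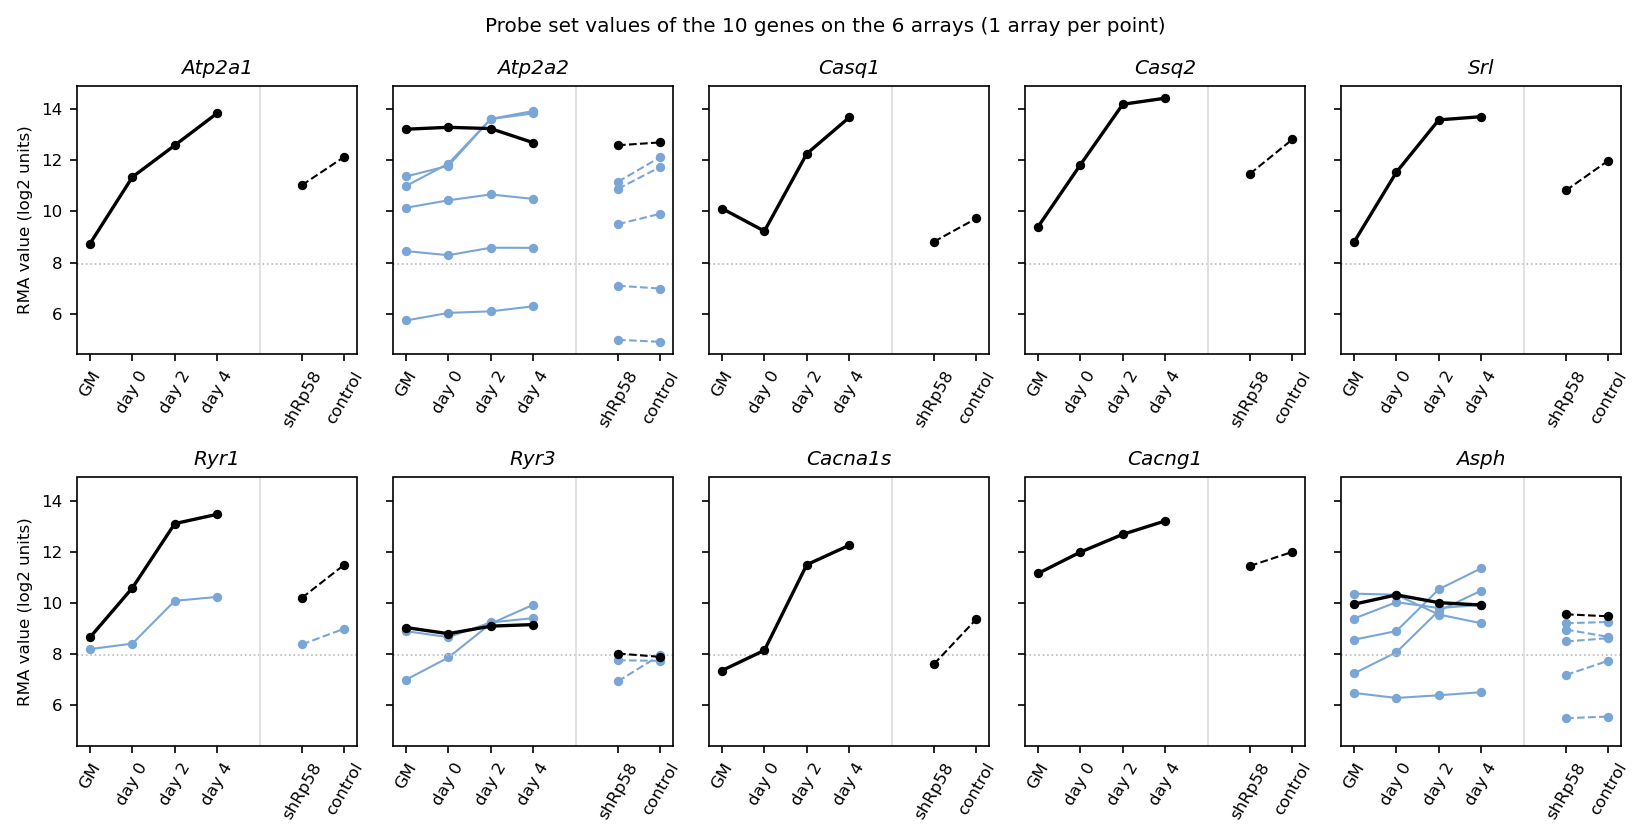
RMA value (log2 units, vertical axis) of every probe set of the 10 genes on the time-course arrays (growth medium, GM, then days 0, 2 and 4, solid lines) and on the shRp58 and control-vector arrays (dashed), with 1 array per point. Black marks the brightest probe set of a gene, blue the others, and the dotted line the filter at 7.95. Atp2a2, Ryr3 and Asph each hold both flat and climbing probe sets, and Casq1 is the gene whose day 0 value (9.23) lies well below its growth-medium value (10.11).

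The calsequestrins, which hold calcium inside the terminal cisternae of the reticulum, differed in timing. Casq2 was 9.39 in growth medium, 11.82 on day 0, 14.19 on day 2 and 14.43 on day 4. Most of its difference lay before day 2 (2.43 and 2.37 over the first steps), with 0.24 between day 2 and day 4. Casq1 was 10.11 in growth medium, 9.23 on day 0, 12.25 on day 2 and 13.67 on day 4. It was 0.88 lower on day 0 than in growth medium, in a step where Casq2 was 2.43 higher, then 3.03 higher on day 2 than on day 0 and a further 1.42 higher on day 4. The difference of Casq1 less that of Casq2 was -3.31 for the first step, 0.66 for the second and 1.18 for the third. For day 4 against day 0, Casq1 ranked 9 from the top of the 13242 kept genes, with a difference of 4.44 (21.8-fold), while Casq2 ranked 102 at 2.60. For day 0 against growth medium, 0.514% of kept genes had a lower difference than Casq1. Casq2 was read by a single probe set of the kind whose probes several transcripts may share, and cross-reading was not tested.

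Srl, the lumenal glycoprotein sarcalumenin, followed a course like that of Casq2, with 8.80 in growth medium, 11.53 on day 0, 13.58 on day 2 and 13.70 on day 4. Its first-step difference of 2.73 ranked 18 of 13242, and its last-step difference was 0.12. Near its final level by day 2, it resembled Casq2 and Ryr1 and not Casq1 or Atp2a1, which were more than 2-fold higher on day 4 than on day 2.

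Of the release channels, Ryr1 is the skeletal ryanodine receptor, and Ryr3 is a second form known from developing muscle. Ryr1 was 8.65 in growth medium, 10.59 on day 0, 13.10 on day 2 and 13.46 on day 4 by its brighter probe set (1427306_at). Its dimmer probe set (1457347_at) read 8.19, 8.41, 10.08 and 10.23. Both stood higher on day 2 than on day 0, by 2.51 and 1.67, but the first-step difference was 1.93 in one and 0.22 in the other, so its size before day 0 rests on the probe set. The Ryr3 probe sets disagreed. The brightest (1432133_at) was 9.04 in growth medium, 8.80 on day 0, 9.09 on day 2 and 9.15 on day 4, with a range of 0.36, and 1452533_at differed by 0.74 between day 4 and day 0. The third, 1427427_at, read 6.99, 7.86, 9.19 and 9.92, and was 2.06 higher on day 4 than on day 0. Its growth-medium and day 0 values were below the filter, so the size of that difference is inexact. Over the 6 pairings of Ryr1 and Ryr3 probe sets, the difference of Ryr1 less that of Ryr3 was positive throughout for day 2 minus day 0, from 0.35 to 2.22. In the other comparisons its sign depended on the pairing: it ran from -0.65 to 2.17 for day 0 minus growth medium, from -0.58 to 0.30 for day 4 minus day 2 and from -0.24 to 2.52 for day 4 minus day 0. For shRp58 minus control vector it ran from -1.43 to 0.41.

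Cacna1s, the voltage sensor and pore of the T-tubule calcium channel, was 7.35 in growth medium, 8.14 on day 0, 11.49 on day 2 and 12.25 on day 4. It was dim before differentiation and stood out on day 2, when its difference from day 0 was 3.35 (10.2-fold) and ranked 10 of 13242. Cacng1, the gamma subunit of the same channel, was already 11.15 in growth medium, then 11.99, 12.68 and 13.20. Its differences were 0.84, 0.69 and 0.52 over the 3 steps, each under 2-fold, and 2.05 in all. The 2 subunits of 1 channel thus differed in shape, with Cacna1s concentrated in a single step and Cacng1 spread over all of them.

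Asph is a single locus that makes aspartyl beta-hydroxylase, an enzyme of the endoplasmic reticulum, and also junctin and junctate, which lie at the calcium release site. Its 6 probe sets differed in direction. The brightest (1420959_at) read 9.95, 10.31, 10.01 and 9.91 from growth medium to day 4, and 1450058_at read 9.39, 10.03, 9.80 and 9.92, neither of them 2-fold apart on any 2 of these arrays. Probe set 1425275_at read 8.56, 8.90, 10.53 and 11.35, and 1425274_at read 7.24, 8.07, 9.69 and 10.48. They were 2.45 and 2.41 higher on day 4 than on day 0. Probe set 1426015_s_at read 10.36, 10.32, 9.54 and 9.21, and was 1.11 lower on day 4 than on day 0. The remaining one, 1436455_at, never passed 6.51. Which of the products each probe set reads was not analysed here.

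Counted over genes by the brightest probe set, 4 of the 10 were at least 2-fold higher on day 0 than in growth medium (Srl, Atp2a1, Casq2 and Ryr1), against 2.91% of all kept genes, and 0 were at least 2-fold lower, against 0.317%. On day 2 against day 0, 6 were at least 2-fold higher (2.67% of kept genes) and 0 lower (2.96%). On day 4 against day 0, 7 were higher (3.83%) and 0 lower (5.66%). Between day 2 and day 4 the number was 2, Casq1 and Atp2a1 (0.808%), with 0 lower (0.808%). The medians of the 10 differences were 0.81, 1.64, 2.33 and 0.30 in these comparisons, beside 0.10, -0.01, -0.04 and -0.03 over all kept genes. The comparisons with day 0 share its array. The 10 genes were chosen with earlier results of these data known, so the counts are a description only. The 3 genes short of 2-fold on day 4, Atp2a2, Ryr3 and Asph, are those whose probe sets disagreed. When each gene was read by the probe set with the widest range over the time course, a choice that favours large differences, all 10 were at least 2-fold higher on day 4 than on day 0 and 9 were on day 2. By the mean of a gene's probe sets, 8 were on day 4 and 6 on day 2. Shares of all genes under these 2 readings are not given here. Over probe sets, 13 of the 21 kept ones were at least 2-fold higher on day 4 than on day 0, against 3.95% of all kept probe sets, and 1 was lower (5.45%). In bulk RNA, more myotubes in the dish and more transcript in each cell cannot be told apart. The mean of the muscle identity markers was higher at each later array, as given above, and the mean of 7 proliferation markers was 12.94 in growth medium, 12.70 on day 0, 10.71 on day 2 and 10.05 on day 4. Their part in the differences was not tested.

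**Figure D2:**
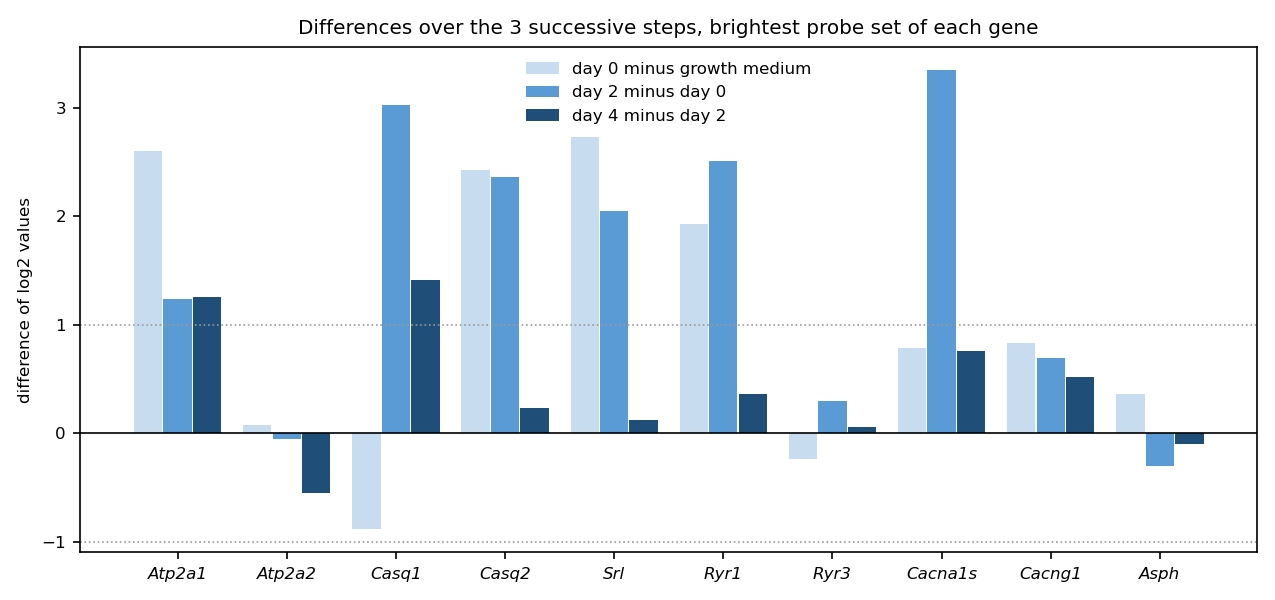
Difference of log2 values (vertical axis) between successive arrays for the brightest probe set of each gene, with bars for day 0 minus growth medium, day 2 minus day 0 and day 4 minus day 2, and dotted lines at 2-fold. Srl (2.73) and Atp2a1 (2.60) lead the first step, Cacna1s (3.35) and Casq1 (3.03) the second, and Casq1 (1.42) and Atp2a1 (1.26) the last.

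Genes with the most similar time course were found by the root mean square distance over the 4 arrays after each gene was centred on its own mean. The nearest to Casq2 were Hjv (0.06), Apobec2 (0.08) and Srl (0.16), and those nearest to Srl were Rab40b (0.08), Hjv (0.15) and Tnni1 (0.16). Ryr1 lay closest to Apobec2 (0.17), Casq2 (0.18) and Hjv (0.19), so the 3 members Casq2, Srl and Ryr1 share neighbours. Cacna1s was nearest to Myom1 (0.12), Dhrs7c (0.20) and Ankrd23 (0.24), and Atp2a1 to Rbm24 (0.22), Chrng (0.23) and Ckm (0.23). Cacng1 had the closest neighbours of all, Grtp1 (0.03), Fyco1 (0.03) and Sync (0.05). Casq1 had the most distant, Postn (0.34), Tspan13 (0.37) and Mttp (0.38). With 4 arrays, a small distance is a description only. The genes were centred and not scaled, so the distance reflects the size of a course as well as its shape. Cacng1 had the smallest range of the matched genes (2.05, beside 4.44 for Casq1), so its distances are not on a par with theirs. The brightest probe sets of Atp2a2, Ryr3 and Asph ranged too little to be matched.

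In the stable lines, the question was how these genes stood on day 0 when the cells carried the hairpin against Rp58. Cacna1s was 7.61 in shRp58 cells and 9.36 in control-vector cells. The difference of -1.76 (3.38-fold) was the lowest of the 10, and 0.068% of kept genes had a lower one. The shRp58 value was below the filter, though above the median of that array (7.15). Casq2 was 11.47 in shRp58 cells and 12.81 in control-vector cells, a difference of -1.34. Ryr1 was 10.20 in shRp58 cells and 11.49 in control-vector cells by its brighter probe set (-1.29), and 8.37 and 8.99 by the other (-0.62). Release channel, voltage sensor and store protein thus all stood lower in shRp58 cells on these arrays. Srl was 10.82 in shRp58 cells and 11.99 in control-vector cells (-1.17), and Atp2a1 was 11.03 in shRp58 cells and 12.13 in control-vector cells (-1.11). Casq1 (8.82 in shRp58 cells, 9.72 in control-vector cells) and Cacng1 (11.44 in shRp58 cells, 11.99 in control-vector cells) differed by -0.91 and -0.55, short of 2-fold.

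The genes with discordant probe sets were again divided. For Atp2a2, 1416551_at was 11.16 in shRp58 cells and 12.12 in control-vector cells (-0.96), and 1452363_a_at was 10.88 in shRp58 cells and 11.74 in control-vector cells (-0.86). The brightest Atp2a2 probe set was 12.58 in shRp58 cells and 12.70 in control-vector cells (-0.11). For Ryr3, 1427427_at was 6.93 in shRp58 cells and 7.96 in control-vector cells (-1.03, from dim values), while the other 2 differed by 0.13 and 0.02. For Asph, 1425274_at differed by -0.56 and 1425275_at by -0.13, although both were more than 2-fold higher on day 4 than on day 0. The values of 1425274_at, 7.18 in shRp58 cells and 7.74 in control-vector cells, were below the filter. Probe set 1426015_s_at was 0.29 higher in shRp58 cells. By the brightest probe set, 5 of the 10 genes lay 2-fold or more below control in shRp58 cells, against 0.619% of kept genes, and 0 were at least 2-fold higher, against 0.0529%. The median of the 10 was -1.01, beside -0.01 over all kept genes. The 13 probe sets at least 2-fold higher on day 4 than on day 0 were all lower in shRp58 cells, from -1.76 to -0.13, but so were 92.8% of all 912 kept probe sets with that difference. The median of the 13 was -0.96, beside -0.48 over the 912. Among the other 8 kept probe sets, 3 were lower and 5 higher in shRp58 cells, where 51.8% of all 22180 kept probe sets of that kind were lower. On the same 2 arrays the mean of the muscle identity markers was 11.89 in shRp58 cells and 12.59 in control-vector cells, and that of the proliferation markers was 11.80 in shRp58 cells and 10.98 in control-vector cells. Their part in these differences was not tested, and the hairpin and other differences between the 2 lines, such as any clone effect, cannot be told apart. G418 selection was common to both lines.

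**Figure D3:**
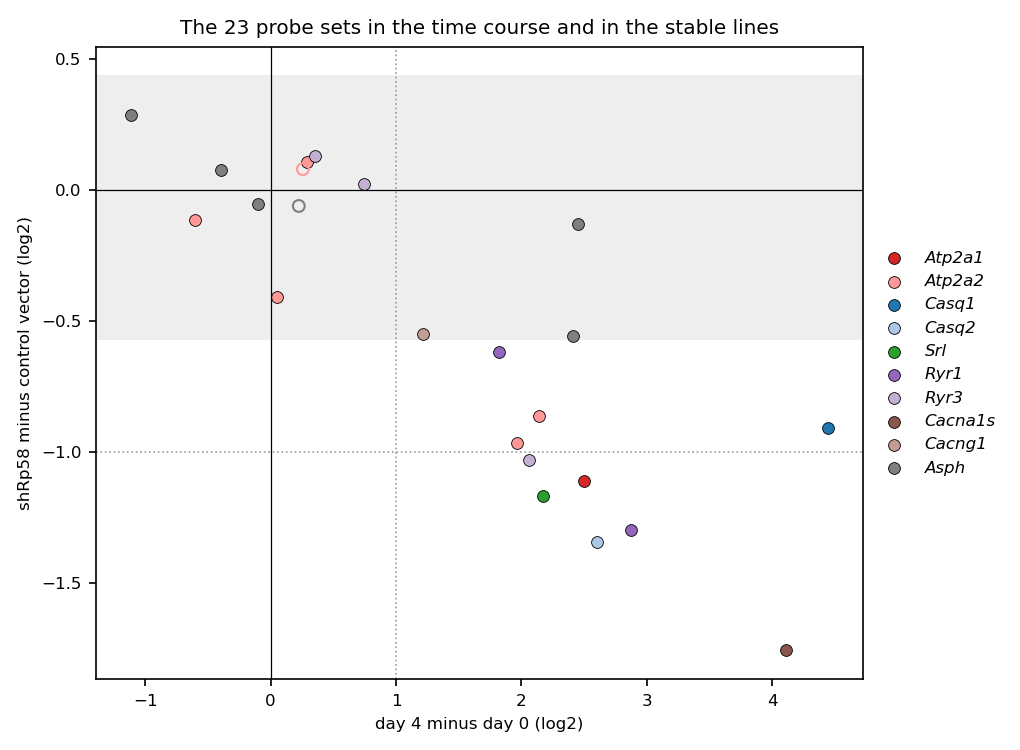
For each of the 23 probe sets, the difference between day 4 and day 0 (log2, horizontal axis) and that of shRp58 less control-vector cells (log2, vertical axis), 1 colour per gene. Open circles are probe sets below the filter, the grey band is the central 95% of kept probe sets in the stable lines, and dotted lines mark 2-fold. The Atp2a2 and Ryr3 probe sets are split between the cluster near 0 and the climbing group, those of Asph also include 1426015_s_at on the lower side (-1.11), and Asph 1425275_at combines a day 4 difference of 2.45 with -0.13 in the stable lines.

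Other genes of calcium handling were taken from 8 lists with 101 names, of which 92 were measured by a probe set with a single gene and 79 were kept. The lists too were chosen with earlier results of these data known. By the brightest probe set, 15 of the 79 on day 4 against day 0 stood at least 2-fold up and 1 down (median 0.12), beside 3.83% and 5.66% of all kept genes. In shRp58 against control-vector cells 0 stood 2-fold up and 2 down (median -0.08), beside 0.0529% and 0.619% of all kept genes. Most of the differences lay in the list of triad and junction proteins. There 11 of 13 were at least 2-fold higher on day 4 than on day 0 (median 1.42, beside 3.83% of all kept genes), led by the caveolar protein Cav3 (4.01), the junctional anchor triadin Trdn (3.26), the lumenal binder Hrc (2.72), the membrane repair protein dysferlin Dysf (2.32) and the store cation channel Tmem38a (2.09). Cav3 was 7.54 on day 0, below the filter, so the size of its difference is inexact. The junctophilins, which bridge the membranes of T-tubule and reticulum, differed by 1.51 (Jph2) and 1.11 (Jph1). Also past 2-fold were Jsrp1 (1.42), Stac3 (1.32), a partner of the calcium channel, Tmem38b (1.32) and the T-tubule protein Bin1 (1.01), while Mtm1 (0.41) and Sypl2 (0.37) fell short. Other kept probe sets went down to -0.01 for Bin1, 0.62 for Tmem38b and 0.97 for Jph2, and up to 2.59 for Jph1 and 1.05 for Mtm1. By the brightest probe set, all 13 were lower in shRp58 than in control-vector cells (median -0.62). Hrc (-1.29) and Cav3 (-1.21, with a shRp58 value of 6.89, below the filter) were lower by over 2-fold. Of all kept genes, 51.3% were lower and 0.619% were lower by 2-fold. Of all 507 kept genes at least 2-fold higher on day 4 than on day 0, 92.7% were lower in shRp58 cells, so the count for the 11 triad genes with that difference is close to the share over all such genes. Other kept probe sets of Trdn (-1.27), Jph1 (-1.14) and Tmem38a (-1.03) also passed 2-fold in shRp58 against control-vector cells. In the other direction, a kept probe set of Tmem38b was higher in shRp58 cells (0.17).

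The further channel subunits and regulators had smaller medians than the triad and junction proteins. Over all kept genes, 3.83% were at least 2-fold higher on day 4 than on day 0 and 5.66% lower. Of 6 kept subunits of voltage-gated channels, the skeletal beta subunit Cacnb1 (1.18) and the alpha-2-delta subunit Cacna2d1 (1.16) were at least 2-fold higher on day 4 than on day 0. Other kept probe sets reached 2.97 for Cacnb1 and went down to -0.37 for Cacna2d1. Over all 79 genes, 4 of the 15 called 2-fold higher had a kept probe set short of it (Jph2, Bin1, Tmem38b and Cacna2d1), and 3 genes not called had one past it (Mtm1, Mcu and the kinase subunit Camk2a, at 3.53). The plasma membrane pump Atp2b1 was 1.12 higher on day 0 than in growth medium and 1.08 lower on day 4 than on day 0, the only one of the 79 past 2-fold downward there. The SERCA inhibitor Mrln was 1.35 higher on day 0 than in growth medium, and the inhibitors Pln (0.34) and Sln (0.12) were not 2-fold apart on day 4 and day 0. The highest value of Sln was 7.95, at the level of the filter, so its small difference is a dim reading. In the store-operated group, the channel Orai1 was 11.37 on day 4 and 10.37 on day 0, just past 2-fold, and the sensor Stim1 (0.47) fell short of it. The cytosolic buffer parvalbumin, Pvalb, was 8.03 in growth medium, 7.97 on day 0, 9.34 on day 2 and 11.13 on day 4. By the brightest probe set, Pvalb (1.79) and Cav3 (1.89) were the 2 of the 79 at least 2-fold higher on day 4 than on day 2, beside 0.808% of all kept genes. Casq1 and Atp2a1 were also 2-fold higher in that step. Other kept probe sets passed 2-fold in that step for Trdn (1.65), Mcu (1.36), Cacnb1 (1.06) and Camk2a (1.02). General lumenal binders and chaperones of the endoplasmic reticulum had 0 of 14 past 2-fold on day 4 against day 0 (median -0.23), with Calr at -0.14 and Hspa5 at -0.26. On day 0 against growth medium their median was 0.41 and their range 0.17 to 1.34 (Rcn3), so that all 14 lay above 0, as did 61.2% of all kept genes. After quantile normalization 13 of the 14 lay above 0, beside 46.1% of all kept genes, and after cyclic loess 13, beside 50.5%. At 0 of 8, the mitochondrial uptake genes had a median of -0.03, with the pore Mcu at 0.89 by its brightest probe set and 1.57 by the other kept one. Of the 5 other release channels and partners 0 were past 2-fold, with the IP3 receptor Itpr3 at -0.83. In lists of 14, 8 and 5 genes, a count of 0 is close to the shares over all kept genes.

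**Figure D4:**
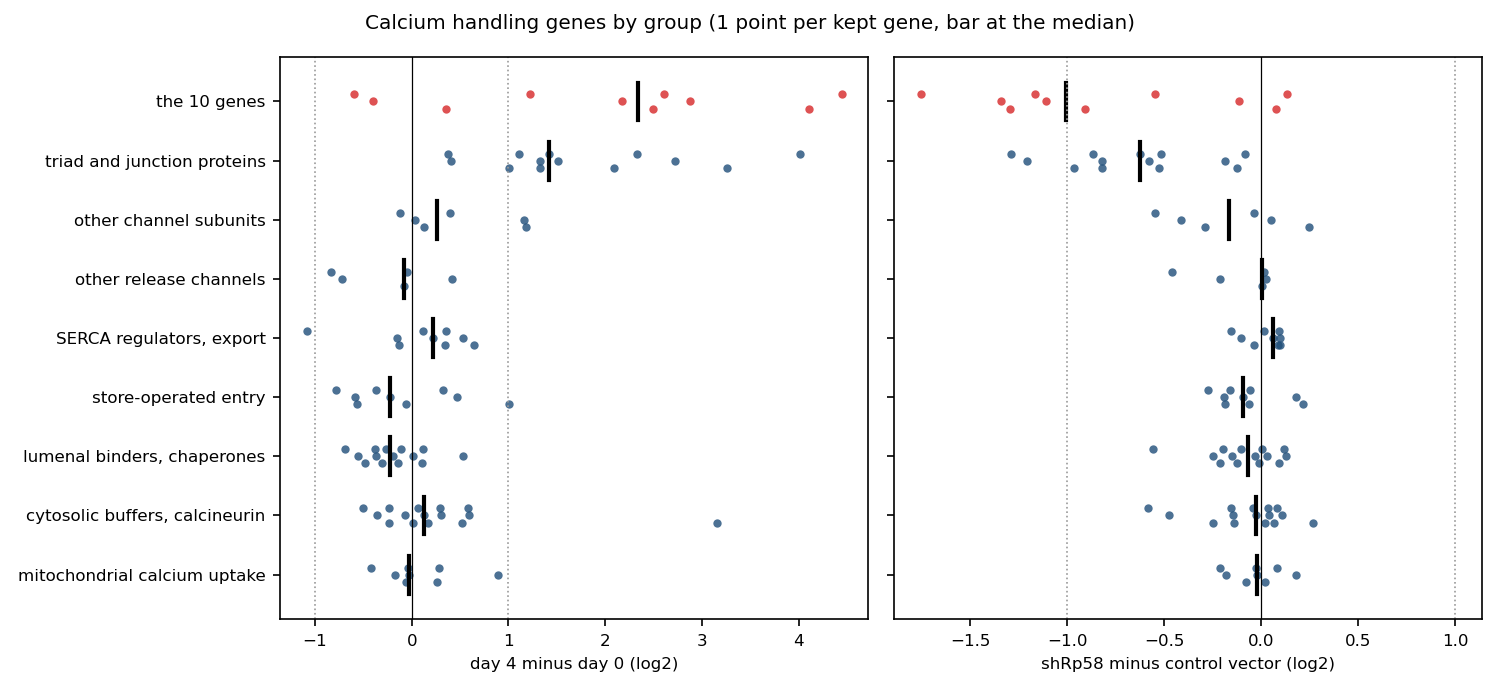
Differences of kept genes (log2, horizontal axes) for day 4 minus day 0 (left) and shRp58 minus control vector (right), for the 10 genes (red) and the 8 lists of other calcium genes (blue), 1 point per gene, with a black bar at each median and dotted lines at 2-fold. The 10 genes and the triad and junction proteins have medians of 2.33 and 1.42 on the left and of -1.01 and -0.62 on the right.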

How the data were processed

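Per the series' design text, the authors made the deposited log2 values with the RMA algorithm from cRNA hybridised to Affymetrix mouse expression arrays. The software, its version and whether the 2 sets were normalized jointly are not stated in the sources at hand. All 6 samples were grouped by title. Probe sets were named from the platform annotation through Entrez IDs and RefSeq (GRCm38.p6): 34958 had 1 gene, 932 several and 9211 none or no entry. The brightest probe set by mean over the arrays stood for a gene, and the filter was a highest value of at least 7.95. Differences, counts at 2-fold, ranks and distances were computed in Python 3.11.15 with pandas 2.3.3, and the scripts were tested on simulated data. Alternatives were other filters (none or 9), the mean or the widest-ranging probe set, a 1.5-fold threshold, median centring, and quantile or cyclic loess normalization within each set of arrays (limma 3.58.1). With 1 array per group no test was run. The 10 genes, the lists and the motifs were chosen with earlier results of these data known. Named were the 10 genes with all their probe sets, Zbtb18 and the 3 nearest genes by time course. Of list members 2-fold apart or extreme in their list, some were named and others were not. S100a1 (1.12) and Rcan2 (1.16), for day 0 minus growth medium, are examples of those left out above. List genes named with smaller differences, and the examples Jph1 and Cacnb1 of discordant probe sets, were chosen after their values were seen. Listed genes were matched by current symbol. A planned comparison of protein sequences was not made here.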

Additional observations from a re-analysis of the deposited data

How the results depend on the processing

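With 1 array per group, alternatives show dependence on processing and not error. Over the 5 comparisons, medians and counts over the 10 genes were recomputed under each alternative, and a median was taken as moved when it shifted by more than the robust standard deviation of all kept genes. The count at least 2-fold lower on day 0 than in growth medium became 1 (Casq1) after quantile (-1.03) and cyclic loess normalization (-1.07) and at the 1.5-fold threshold, and at that threshold the count lower on day 4 than on day 0 became 1 (Atp2a2). With the widest-ranging probe sets the day 4 minus day 2 median was 0.63, and the Atp2a1 less Atp2a2 difference for day 2 minus day 0 was -0.50 in place of 1.29. Differences of single genes moved in 16 of 50 cases with the mean of probe sets, in 15 of 50 with the widest-ranging one and in none of the 50 under each scaling. All of these concern genes with several probe sets. Quantile normalization changed the share higher among all genes 2-fold apart on day 0 against growth medium to 79.5%, against 90.2% as deposited, and the median of all genes to -0.03, against 0.10. The count at least 2-fold lower in shRp58 cells was 5 in the main reading and 4 with the mean of probe sets. It was 6 with the widest-ranging ones and 6 at the 1.5-fold threshold. The count at least 2-fold higher on day 4 than on day 0 was 7, then 8 with the mean and 10 with the widest-ranging ones. Filtering at 9 or not at all changed no count or median of the 10 genes. Without detection calls, dim values of Cacna1s, Ryr3, Asph and Cav3 limit the sizes given. No paired analysis was possible because each group holds 1 array.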
